A study of Mus musculus with 4 samples.

Results

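Cxcl9, Cxcl10, Cxcl11, Cxcl16, Cxcr3 and Cxcr6 are the 6 genes described here, taken by name as the chemokines that draw activated lymphocytes together with the receptors that read them. 5 of the 6 were measured among the 31053 genes of the count tables. Cxcl11, which the GENCODE mouse annotation lists as a polymorphic pseudogene, had no row in them and was not analysed here. The data are single-cell RNA counts from MycCaP mouse prostate cancer cells grafted under the skin, and from the stromal and vascular cells of subcutaneous adipose tissue (SAT). The hosts were chow-fed mice, given as strain FVB in the study and spelled VFB in the genotype labels, with no age in the labels. They received either the control, named PBS in the sample titles, or D-CAN, a peptide directed at adipose stromal cells (ASC). Dead cells and red cells had been removed before capture. There was 1 library for each tissue and treatment, 4 libraries in all, and how many mice went into a library is not given in the sources used here, so no value below has a replicate check and differences between the treatments could not be tested.

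The ligands Cxcl9, Cxcl10 and Cxcl11 are small secreted proteins that cells make after exposure to interferons, above all interferon gamma, and all 3 bind CXCR3 on effector T cells and NK cells. Cxcl16 is unlike them: it is made as a membrane-bound protein that proteases can shed, it binds CXCR6 rather than CXCR3, and dendritic cells and macrophages are known to carry it. CXCR6 is known from tissue-resident memory T cells, innate-like T cells and NK cells. Together these genes are commonly read as a sign of lymphocyte recruitment into tumors and inflamed adipose tissue.

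The genes of the 3 CXCR3 ligands lie side by side on the minus strand of chromosome 5, which is why their start sites are shown. In GRCm38, Cxcl9 spans chr5:92321347-92328079, Cxcl10 spans chr5:92346638-92348889 and Cxcl11 spans chr5:92359544-92365485, so all 3 sit within 44.1 kb. Cxcl16 lies at chr11:70453983-70459984 on the minus strand, Cxcr3 at chrX:101731535-101734269 on the minus strand and Cxcr6 at chr9:123806475-123811760 on the plus strand. RefSeq promoter windows on GRCm38.p6, from 250 bases before to 50 bases after the start site, were at hand for 4 of the 6 genes, namely Cxcl9, Cxcl10, Cxcr3 and Cxcr6. Both strands were searched for 3 motifs: the interferon-stimulated response element, read as GAAA, any 2 bases and GAAA, the gamma-activated site TTCNNNGAA and the kappa B site GGGANTTCC. The first was present in 3.44% of 32851 mouse promoter windows, the second in 8.30% and the third in 1.68%. The Cxcl9 window is chr5:92328030-92328329 and the Cxcl10 window is chr5:92348840-92349139, both on the minus strand, read 5′ to 3′ with matched motifs in capitals:
Cxcl9: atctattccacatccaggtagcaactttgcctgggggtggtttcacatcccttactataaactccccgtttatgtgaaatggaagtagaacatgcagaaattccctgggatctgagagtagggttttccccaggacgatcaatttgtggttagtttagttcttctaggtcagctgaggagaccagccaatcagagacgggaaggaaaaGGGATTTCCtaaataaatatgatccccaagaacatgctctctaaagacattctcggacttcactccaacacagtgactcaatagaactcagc
Cxcl10: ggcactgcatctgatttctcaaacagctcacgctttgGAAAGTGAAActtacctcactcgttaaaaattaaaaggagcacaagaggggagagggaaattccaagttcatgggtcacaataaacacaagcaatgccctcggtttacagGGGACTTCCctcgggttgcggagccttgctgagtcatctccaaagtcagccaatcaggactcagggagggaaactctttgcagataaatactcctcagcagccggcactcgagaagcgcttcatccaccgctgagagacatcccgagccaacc
The Cxcl9 window held 1 kappa B match, at -42 to -34 from the start site. The Cxcl10 window held a kappa B match at -103 to -95 and an interferon-stimulated response element match at -213 to -204. No gamma-activated site match was in either window, and none of the 3 motifs matched the windows of Cxcr3 or Cxcr6. A match describes letters only, and binding was not measured here.

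After removal of barcodes with fewer than 200 genes, 8986 of 9128 cells remained: 2761 in the control tumor, 1487 in the D-CAN tumor, 2841 in control SAT and 1897 in D-CAN SAT. The median number of transcript molecules counted per cell (unique molecular identifiers, UMIs) ran from 1707 in control SAT to 5232 in the D-CAN tumor, and was higher in the D-CAN library of both tissues. Each cell was placed in a class by the number of different marker genes of that class it held, which gated 7298 cells, while 648 carried markers of more than 1 class (mixed) and 1040 could not be placed. The tumor libraries held 1155 and 626 cancer cells in control and D-CAN, in which Krt8 and Cldn3 were plentiful. Others of the 8 cancer markers were scarce: Cldn7 had 0 UMIs in both cancer classes, and Epcam had 0 and Krt18 had 1 in the D-CAN class. The minimum of 2 markers, and no more, was held by 430 of the control and 232 of the D-CAN cancer cells. The SAT libraries held many lymphocytes, with 722 and 748 T cells and 651 and 615 B cells in control and D-CAN. Levels are given as UMIs of the gene scaled to 1000000 UMIs of the class (CPM) with an exact 95% Poisson interval, and shares of cells or of UMIs with an exact 95% binomial interval, and both cover counting error only, not variation between mice. Ratios are log2 of D-CAN over control CPM with 0.5 UMI added, and a gene was called when it passed 2-fold.

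Over the 4 libraries, Cxcl16 had 1588 UMIs in 789 cells, Cxcl10 had 1579 UMIs in 409 cells and Cxcl9 had 1402 UMIs in 353 cells. The receptors were sparser, with 358 UMIs of Cxcr6 in 202 cells and 192 UMIs of Cxcr3 in 147 cells. For each ligand the gated class with the most UMIs differed between tumor and SAT, and the ligands shared some of their sources. In the control tumor, C1q-expressing macrophages held 169 of 451 Cxcl9 UMIs, 202 of 442 of Cxcl10 and 475 of 599 of Cxcl16.

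**Figure D1:**
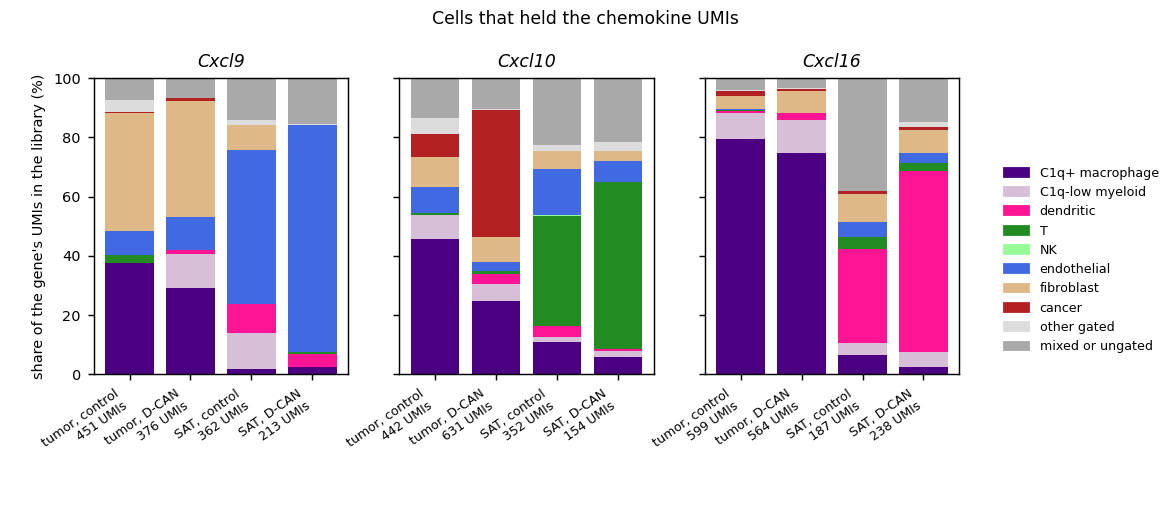
Share of each ligand's UMIs (vertical axis, percent) that lay in each marker-gated class, 1 bar per library with its total UMIs beneath. Macrophages dominate the tumor bars of Cxcl16, fibroblasts and macrophages those of Cxcl9, and endothelial cells the SAT bars of Cxcl9.

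Cxcl9 in the tumor came mainly from fibroblasts and from macrophages that express the complement C1q genes. Fibroblasts held 179 of 451 UMIs in the control tumor (39.7%) and 147 of 376 in the D-CAN tumor (39.1%), in 18 of 136 and 18 of 85 cells. C1q+ macrophages held 169 UMIs in 37 of 456 cells in control (37.5%) and 110 UMIs in 17 of 263 cells under D-CAN (29.3%). Cancer cells, with 2 and 3 UMIs, were close to empty of Cxcl9. The level in fibroblasts was 348 CPM (299 to 403) in control and 218 CPM (184 to 256) in D-CAN, a log2 ratio of -0.68 (-1.002 to -0.35). In C1q+ macrophages it was 187 CPM (160 to 217) and 131 CPM (108 to 158), a log2 ratio of -0.51 (-0.87 to -0.15). Neither ratio passed 2-fold, the size that 5.45% of 6426 genes passed in fibroblasts and 3.7% of 7213 genes passed in C1q+ macrophages.

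The vessel wall and the myeloid cells low in C1q gave the other tumor values of Cxcl9. Endothelial cells had 142 CPM (100 to 196) in control, from 13 of 92 cells, and 224 CPM (162 to 303) in D-CAN, from 9 of 55 cells, a log2 ratio of 0.65 (-0.02 to 1.33) whose interval reaches 0, where 8.25% of 3610 genes passed 2-fold. 27 of the 42 UMIs in the D-CAN endothelial class were in 1 cell. Most of this signal lay in cells with Gpihbp1, the capillary anchor of lipoprotein lipase, at 153 CPM and 256 CPM. C1q-low myeloid cells had 1 UMI in 156 cells in control (4.69 CPM) and 43 UMIs in 6 of 111 cells under D-CAN (173 CPM), a log2 ratio of 4.64 (2.65 to 10.55), where 6.53% of 3018 genes passed 2-fold in either direction. 24 of those 43 UMIs were in 1 cell. The 13 T cells of the control tumor held 11 UMIs of Cxcl9, all in 1 cell, and the 18 T cells of the D-CAN tumor held 0.

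Cxcl9 in SAT was mainly an endothelial transcript. Endothelial cells held 188 of 362 UMIs in control SAT (51.9%) and 163 of 213 in D-CAN SAT (76.5%), in 72 of 408 cells (17.6%) and 53 of 156 cells (34.0%). Their levels were 201 CPM (173 to 232) and 182 CPM (155 to 212), a log2 ratio of -0.14 (-0.45 to 0.17), so the larger share of positive cells in D-CAN came without a higher level, and the median depth of these cells was 1075 UMIs in control and 4299 in D-CAN. Within the endothelium, cells with Gpihbp1 held most of it. They had 250 CPM (62 of 258 cells) in control and 207 CPM (51 of 126 cells) in D-CAN, against 55.3 CPM and 17.1 CPM in endothelial cells without a Gpihbp1 UMI, which were also shallower in both libraries (medians of 1387 and 808 UMIs in control, and 4480 and 3083 in D-CAN).

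Fibroblasts, dendritic cells and C1q-low myeloid cells of SAT had more Cxcl9 in the control library. SAT fibroblasts had 30 UMIs in 20 of 265 cells in control (60.5 CPM, 40.8 to 86.3) and 0 UMIs in 77 cells under D-CAN. That is 8.52-fold lower when a floor of 3 UMIs is set for the D-CAN class, leaving aside counting error in the control UMIs. The log2 ratio was -5.70, with an interval that has no lower end and an upper end of -2.70, where 5.81% of 5633 genes passed 2-fold lower. 26 of the 30 UMIs were in the 142 cells without Pi16 or Dpp4, genes that mark the progenitor end of the adipose stroma, at 120 CPM against 14.3 CPM in the 123 cells with either. The control fibroblasts were shallow (median 926 UMIs, against 5157 in D-CAN) and carried transcripts of other classes: all 8 T cell markers (summed level 167 CPM, against 11.8 CPM for the 4 seen in D-CAN), all 5 B cell markers (105 CPM, against 2.36 CPM) and 7 of 9 dendritic markers (98.8 CPM, against 16.6 CPM), while macrophage markers summed to 329 and 338 CPM. The part of these other transcripts in the fibroblast values was not tested. Cxcl9 in dendritic cells was 167 CPM (116 to 232) in control and 27.4 CPM (13.1 to 50.4) in D-CAN, a log2 ratio of -2.56, where 12.1% of 3319 genes passed 2-fold, and 23 of the 35 control UMIs were in 1 cell. The control dendritic class was shallower (median 2403 UMIs, against 8840 in D-CAN) and had 21 of 44 cells at the cut of 2 markers against 7 of 40. It also held more UMIs of genes on the marker lists of other classes. Plasma cell markers summed to 3295 CPM in it, 472 UMIs of them Jchain, against 10.95 CPM in D-CAN, B cell markers to 148 against 2.74 CPM, and macrophage markers to 1362 against 786 CPM. Whether these transcripts came from other cells or from the dendritic cells themselves, and their part in the dendritic values, was not tested. C1q-low myeloid cells had 44 UMIs in 9 of 39 cells in control, 27 of them in 1 cell, and 0 in 24 cells in D-CAN.

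**Figure D2:**
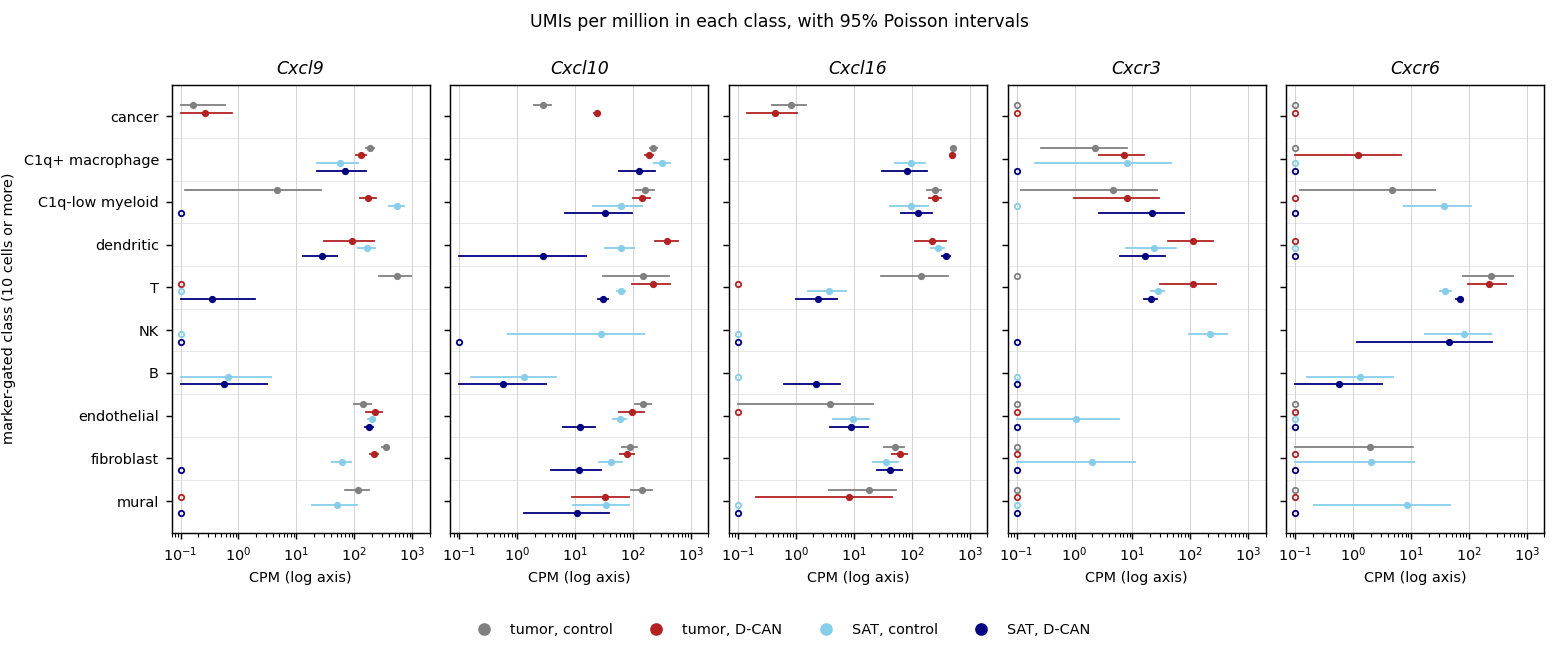
Level of each measured gene (horizontal axis, CPM on a log scale) in classes with 10 cells or more, 1 point per library with its 95% Poisson interval, and open points at the left edge for classes with 0 UMIs (intervals that pass the edge are cut there). Among classes of at least 10 cells, Cxcl16 sits highest in C1q+ macrophages in the tumor and in dendritic cells in SAT, and the receptors sit highest in T, NK and tumor dendritic cells. The tumor dendritic points rest on 17 D-CAN cells, 8 of them at the cut of 2 markers.

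Cxcl10 had the widest spread of sources. In the control tumor C1q+ macrophages held 202 of 442 UMIs (45.7%, 48 of 456 cells), at 223 CPM (194 to 256). Under D-CAN the same class held 157 of 631 UMIs (24.9%, 29 of 263 cells), at 187 CPM (159 to 219), a log2 ratio of -0.25. The level within the class thus moved little while its part of the library's total was smaller. C1q-low myeloid cells had 164 and 141 CPM, endothelial cells 150 and 96.2 CPM, and fibroblasts 87.6 and 78.6 CPM in control and D-CAN. Mural cells, the contractile cells around vessels, had 145 CPM from 24 UMIs in control and 32.7 CPM from 4 UMIs in D-CAN.

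The smaller part held by macrophages went with a larger count of Cxcl10 in cancer cells of the D-CAN tumor. Cancer cells held 34 UMIs in 20 of 1155 cells in control (2.77 CPM, 1.92 to 3.87) and 270 UMIs in 19 of 626 cells under D-CAN (24.0 CPM, 21.2 to 27.0), a log2 ratio of 3.10 (2.60 to 3.67). Among 10980 genes in cancer cells, 0.729% passed 2-fold higher and 1.72% passed in either direction. A single D-CAN cell held 187 of the 270 UMIs (69.3%), which is 29.6% of all Cxcl10 in its library. That cell had 15081 UMIs, 3.14% of them mitochondrial, with 28 UMIs of Krt8 and 15 of Cldn3, against 1 each of the macrophage genes Lyz2 and C1qa and 0 of Cd68. Without the top cell of each library, 26 and 83 UMIs remained (2.12 and 7.38 CPM), a log2 ratio of 1.78 (1.15 to 2.49). Without the 10 top cells of each library, 10 and 9 UMIs remained, at 0.823 and 0.814 CPM, a log2 ratio of -0.01. Those cells were picked by their Cxcl10 count, so values without them describe how the UMIs were spread over cells and are no test of the difference.

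Other interferon target genes were higher in the same class. Of 10 interferon target genes with enough UMIs in cancer cells, 6 passed 2-fold higher in D-CAN and 0 lower, with a median log2 ratio of 1.40 against 0.03 over all genes. Rsad2, an antiviral enzyme, had 5 UMIs in control and 62 in D-CAN (log2 3.63), and Ifit3, an antiviral RNA-binding family member, had 7 and 63 (log2 3.21). Gbp2, an interferon-induced GTPase, had 19 and 66 UMIs (log2 1.89), and Isg15, a ubiquitin-like protein, had 726 and 1300 UMIs (59.2 and 116 CPM, log2 0.96). Not all were higher: Iigp1 had 18 and 17 UMIs (log2 0.04) and Ido1 had 13 and 10 (log2 -0.24). The cell with 187 UMIs of Cxcl10 also held 36 of the 62 UMIs of Rsad2 (58.1%), 26 of the 66 of Gbp2 (39.4%) and 136 of the 1300 of Isg15 (10.5%), and 2 of the 3 UMIs of Cxcl9 in the class. With the top Cxcl10 cell of each library left out, 6 of 10 still passed and the median was 1.10. With the 10 top cells left out, 2 of 6 passed (Ifit1 at 1.19 and Oasl1 at 1.15) with a median of 0.58, and 0.621% of all genes then passed 2-fold higher. Of the genes that then had too few UMIs to be counted, Iigp1 had 18 in control and 1 in D-CAN, and Ido1 12 and 6. Ifit3, with 7 and 12, and Rsad2, with 3 and 7, went the other way. In the cancer class, macrophage markers summed to 33.0 CPM in control and 19.6 CPM in D-CAN, and fibroblast markers to 31.1 and 12.6 CPM. None of 8 interferon gamma signalling genes and none of 6 type I interferon signalling genes tested there passed 2-fold. Only 1.72% of 10980 genes did so in either direction, so a count of 0 in lists this short is near that share.

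**Figure D3:**
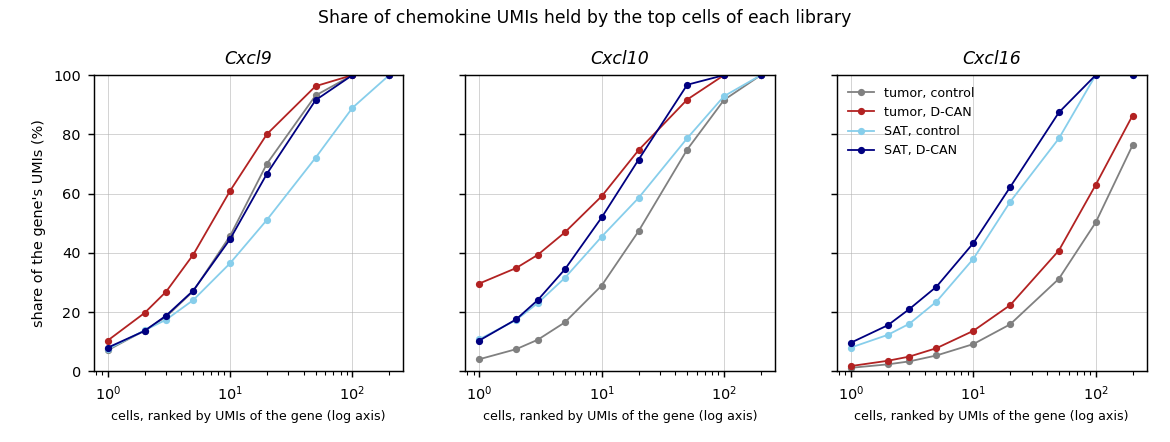
Share of a ligand's UMIs (vertical axis, percent) held by the cells with the most of it, ranked along a log axis, 1 line per library. For Cxcl10 the D-CAN tumor line starts at 29.6% with 1 cell, and for Cxcl16 the 10 top tumor cells hold no more than 13.7%.

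The concentration in few cells set the ligands apart from each other. The 10 cells with the most Cxcl9 held 45.7% of its UMIs in the control tumor, 60.9% in the D-CAN tumor, 36.5% in control SAT and 44.6% in D-CAN SAT. The same share for Cxcl10 was 29.0%, 59.1%, 45.5% and 51.9%. Cxcl16 was spread over many more tumor cells, with 9.18% and 13.7% in the top 10 there, and 38.0% and 43.3% in SAT, where fewer cells carried it. A fixed 10 cells is a larger part of the smaller D-CAN libraries. The top 1% of cells held 80.7% and 72.9% of Cxcl9 UMIs in the tumor and 59.4% and 64.8% in SAT, control first. In the same order the shares were 57.5%, 68.1%, 66.5% and 70.1% for Cxcl10, and 20.2%, 18.1%, 67.4% and 60.5% for Cxcl16. The order of the treatments thus depended on the cut for tumor Cxcl9 and for Cxcl16 in both tissues. By class, 5 of the 10 top Cxcl9 cells were fibroblasts in each tumor library, and 7 and 9 were endothelial cells in control and D-CAN SAT. For Cxcl16, 8 and 9 of the top 10 were C1q+ macrophages in the tumor. A sum over a class that rests on so few cells has more uncertainty than its Poisson interval shows.

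T cells held more of the Cxcl10 in SAT than any other gated class, and its level was lower in D-CAN in T cells, endothelial cells and fibroblasts. T cells held 131 of 352 UMIs in control (37.2%, 37 of 722 cells) and 87 of 154 in D-CAN (56.5%, 26 of 748 cells). T cells also held 31.6% of the UMIs of all genes in control SAT and 38.4% in D-CAN SAT, so the control share lay near that of the class as a whole. The Cxcl10 level in T cells was 62.2 CPM (52.0 to 73.8) in control and 30.5 CPM (24.5 to 37.7) in D-CAN, a log2 ratio of -1.02 (-1.43 to -0.62), where 2.87% of 8739 genes passed 2-fold. B cells of the same libraries, which should lack the gene, had 2 UMIs in 651 cells and 1 UMI in 615 cells (1.32 and 0.564 CPM). The T cell ratio depends on the gate. With 3 rather than 2 T cell markers required, it was -0.40 (-0.88 to 0.07), and the T cell share of control UMIs was 21.6%. With graph clusters in place of gates it was -0.64 (-1.09 to -0.20), with a share of 27.3%. Without the top cell of each library it was -0.83. The gated T cells also held 9 of 12 genes of the macrophage marker list, summed to 362 CPM in control and 340 CPM in D-CAN. Most of these sums was 1 gene, Ly6c2, with 653 UMIs in control and 783 in D-CAN. The part of these transcripts in the Cxcl10 values was not tested.

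The Cxcl10-positive T cells, 37 in control and 26 in D-CAN, differed from the other T cells in the genes they held. They were deeper (medians of 3357 and 3947 UMIs, against 2709 and 3490 in all T cells), and the part of depth in these shares was not tested. The cell with the most, 38 UMIs in control SAT, held 2 of the 8 T cell markers (15 UMIs of Trbc1 and 2 of Lck). It had 0 UMIs of Cd3d, Cd3e and Cd3g, and 1 of the NK marker Ncr1. It also held 6 UMIs of the proliferation gene Mki67, 2 of Ccr2 and 2 of Zbtb46, the last a dendritic marker. T cells with an Mki67 UMI had 457 CPM of Cxcl10 in control (32 cells) and 147 CPM in D-CAN (24 cells), and 170 and 67.7 CPM without their top cell, against 36.9 and 21.9 CPM in T cells without Mki67. Among Cxcl10-positive T cells, 27.0% in control and 15.4% in D-CAN held Foxp3, the regulator of regulatory T cells, against 3.80% and 5.68% of the T cells with no Cxcl10. For Itgae, an integrin of tissue-resident cells, the shares were 27.0% and 30.8% against 5.69% and 7.48%. For Gzmb, a cytotoxic granule protease, they were 13.5% and 7.69% against 2.04% and 0.831%. By coreceptor, T cells with Cd4 only had 82.3 CPM in control and 28.4 CPM in D-CAN, and those with Cd8 only 40.7 and 5.69 CPM. The last value was 6 UMIs in 1 of 228 cells. T cells with neither coreceptor held more UMIs than either group, 70 in control (72.7 CPM) and 48 in D-CAN (41.8 CPM). A further 16 D-CAN UMIs were in 1 of the 8 cells with both.

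Endothelial cells and fibroblasts of SAT also had less Cxcl10 in D-CAN. In endothelial cells it was 58.8 CPM (44.3 to 76.6) in control and 12.3 CPM (6.14 to 22.0) in D-CAN, a log2 ratio of -2.21 (-3.34 to -1.31), where 4.16% of 7961 genes passed 2-fold. Endothelial cells without a Gpihbp1 UMI held 28 of the 55 control UMIs (119 CPM, 150 of 408 cells) and 0 UMIs under D-CAN (30 of 156 cells). Those with Gpihbp1 had 38.6 CPM in control and 14.1 CPM in D-CAN. The part of this make-up in the ratio was not tested. In fibroblasts Cxcl10 was 42.3 CPM from 21 UMIs and 11.8 CPM from 5 UMIs, a log2 ratio of -1.74, where 10.3% of 5633 genes passed 2-fold. The cells without Pi16 or Dpp4 held the difference, with 92.2 CPM in control and 5.90 CPM in D-CAN, while those with either gene had 1 UMI and 4 UMIs. In the control endothelial class T cell markers summed to 75.9 CPM, against 21.2 CPM in D-CAN, and B cell markers to 57.8 CPM against 2.24 CPM. Red cell markers were higher in the D-CAN class, at 351 CPM in control and 2501 CPM in D-CAN, as were neutrophil markers, at 3.21 and 172 CPM. The part of these transcripts in the Cxcl10 values was not tested. C1q+ macrophages of control SAT had 319 CPM, but 36 of their 39 UMIs were in 2 cells.

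**Figure D4:**
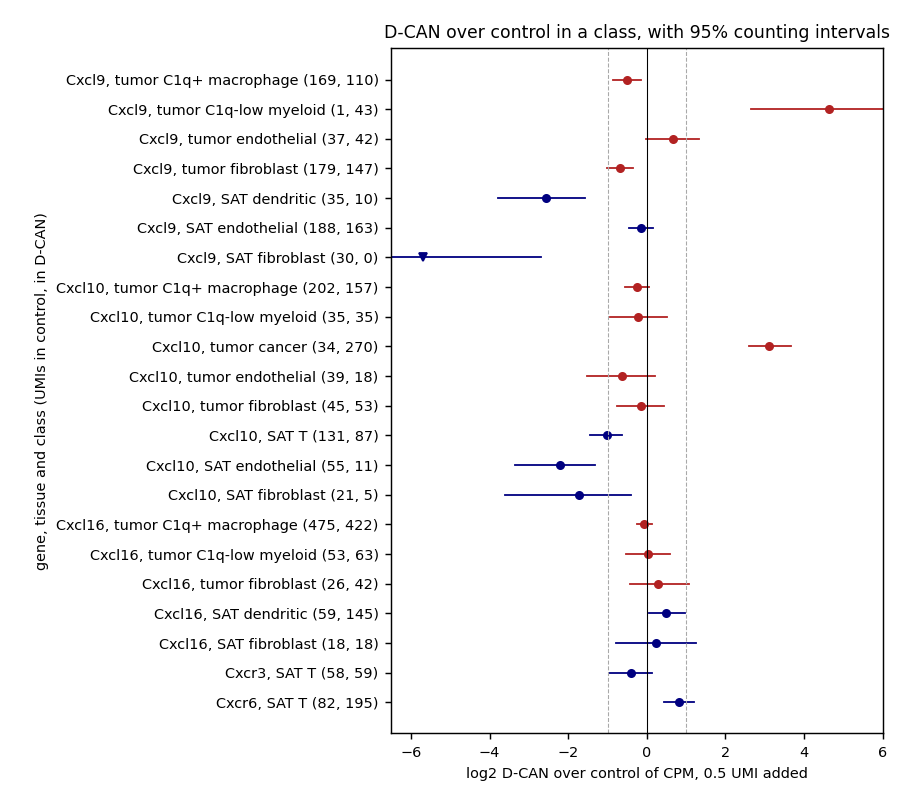
Log2 ratio of D-CAN over control CPM (horizontal axis) for each gene and class that reached 20 UMIs in the pair of libraries, with 95% counting intervals, UMIs in brackets and dashed lines at 2-fold, tumor in red and SAT in blue (the triangle marks 0 UMIs in D-CAN). Cxcl10 in tumor cancer cells lies at 3.10, and the SAT values of Cxcl10 lie at -1.02 in T cells, -2.21 in endothelial cells and -1.74 in fibroblasts.

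Cxcl16 was a macrophage transcript in the tumor, at nearly the same level in both libraries. C1q+ macrophages held 475 of 599 UMIs in control (79.3%) and 422 of 564 in D-CAN (74.8%), and with C1q-low myeloid cells added the shares were 88.1% and 86.0%. These classes together held 6.23% and 6.95% of all UMIs. The level in C1q+ macrophages was 525 CPM (479 to 575) in control and 504 CPM (457 to 554) in D-CAN, a log2 ratio of -0.06 (-0.25 to 0.13). The share of positive cells was 55.0% (251 of 456) in control and 70.7% (186 of 263) in D-CAN, with median depths of 1673 and 2448 UMIs in the class. C1q-low myeloid cells had 248 and 254 CPM, about the level of the few tumor dendritic cells at 207 and 223 CPM. Fibroblasts had 50.6 and 62.3 CPM, while endothelial cells had 1 UMI and 0 UMIs and cancer cells 0.815 and 0.444 CPM. C1q+ macrophages lay above C1q-low myeloid cells and fibroblasts with intervals that did not overlap in either library, while those of C1q-low myeloid and dendritic cells did overlap.

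Dendritic cells took the place of macrophages as the main Cxcl16 source in SAT. They held 59 of 187 UMIs in control (31.6%, 19 of 44 cells) and 145 of 238 in D-CAN (60.9%, 27 of 40 cells), at 281 CPM (214 to 362) and 397 CPM (335 to 467), a log2 ratio of 0.49 (0.05 to 0.96) that did not pass 2-fold. By graph clusters the dendritic shares were 54.0% and 63.9%. The interval of the ratio reached below 0 with 1 more marker required, at 0.27 (-0.18 to 0.77). Mixed cells held a further 31.0% and 13.0%. The dendritic cells with at least 2 of Ccr7, Fscn1 and Ccl22, genes of the mature and migrating state, carried nearly all of it. Mature cells had 413 CPM (16 of 26 cells, 61.5%) in control and 667 CPM (21 of 25 cells, 84.0%) in D-CAN, against 40.4 CPM from 3 UMIs and 67.0 CPM from 11 UMIs in the other dendritic cells. SAT C1q+ macrophages, at 98.3 and 83.2 CPM, were below their tumor counterparts, but these levels rest on few cells. Cxcl16 was in 7 of 34 of them in control, with 6 of 12 UMIs in 1 cell, and in 3 of 14 in D-CAN. T cells had 3.80 and 2.46 CPM and endothelial cells 9.63 and 8.94 CPM.

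Cxcr3 was found mainly in SAT T cells and, in control SAT, in NK cells. T cells held 58 of 86 UMIs in control (67.4%, 44 of 722 cells) and 59 of 79 in D-CAN (74.7%, 41 of 748 cells). Their level was 27.5 CPM (20.9 to 35.6) in control and 20.7 CPM (15.8 to 26.7) in D-CAN, a log2 ratio of -0.41 (-0.96 to 0.14). SAT dendritic cells held Cxcr3 too, in 3 of 44 cells in control and 5 of 40 in D-CAN. The mature ones had 22.1 CPM from 3 UMIs and 4.98 CPM from 1 UMI. The others had 26.9 CPM from 2 UMIs and 30.4 CPM from 5 UMIs, so few UMIs lay behind levels near those of T cells. No B cell had a UMI, 0 of 651 in control, which allows a share of up to 0.461%, and 0 of 615 in D-CAN, which allows 0.488%, limits on cells with a UMI and not on cells that express the gene, at median depths of 1993 and 2606 UMIs in B cells and 2709 and 3490 in T cells. NK cells had it in 7 of 15 cells in control (46.7%) and in 0 of 10 in D-CAN, with an exact upper bound of 30.8% for cells with a UMI. The share of T cells with a Cxcr3 UMI was 6.09% and 5.48%. With every cell thinned to 1000 UMIs it was 2.12% in control and 3.31% in D-CAN, and at 2000 UMIs 4.09% and 2.32%, so the order of the treatments differed between depths. Each depth was a single random draw that left out shallower cells, and the part of the draw in this order was not tested. With graph clusters in place of gates the log2 ratio was -0.63 (-1.17 to -0.10), an interval that does not include 0, so the difference in level depends on how T cells were chosen.

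**Figure D5:**
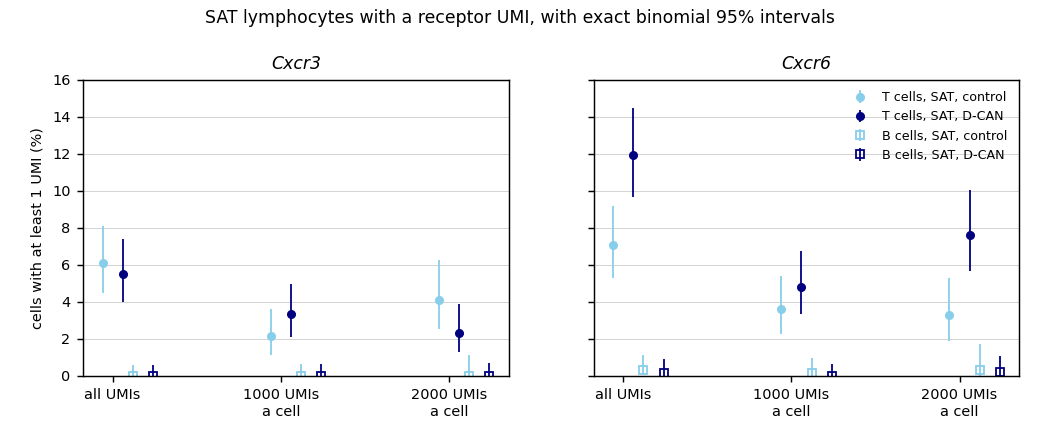
Share of SAT T cells (filled) and B cells (open) with at least 1 UMI of Cxcr3 or Cxcr6 (vertical axis, percent), with exact binomial 95% intervals, at full depth and with each cell thinned to 1000 or 2000 UMIs. For Cxcr3 the order of control and D-CAN differs between the depths, and for Cxcr6 the D-CAN T cells lie above the control at each of the 3.

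The Cxcr3-bearing T cells carried effector genes more often than the other T cells. Nkg7, a granule protein of cytotoxic cells, was present in 61.4% of them in control and 75.6% in D-CAN, against 24.9% and 29.6% of T cells without Cxcr3. Ccl5, a chemokine of activated T cells, was present in 36.4% and 53.7% against 14.0% and 14.7%. Ifng was present in 29.5% and 19.5% against 6.93% and 6.08%. Ccr7, the lymph node homing receptor, went the other way, with 27.3% and 26.8% against 35.7% and 45.3%. These cells were deeper than the T cells as a whole, with medians of 3766 and 5264 UMIs, and the part of depth in these shares was not tested. T cells with Cd8 only were Cxcr3-positive in 22 of 202 cells (10.9%) and 23 of 228 (10.1%), and those with Cd4 only in 4 of 114 (3.51%) and 7 of 137 (5.11%).

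Cxcr6 was higher in SAT T cells of the D-CAN library. T cells held 82 of 116 UMIs in control (70.7%, 51 of 722 cells, 7.06%) and 195 of 217 in D-CAN (89.9%, 89 of 748 cells, 11.9%). The level was 38.9 CPM (30.9 to 48.3) in control and 68.4 CPM (59.2 to 78.7) in D-CAN, a log2 ratio of 0.81 (0.44 to 1.20), short of 2-fold. Thinned to 1000 UMIs the shares were 3.59% and 4.81%, and at 2000 UMIs 3.27% and 7.63%, both higher in D-CAN, from a single random draw at each depth. B cells, as the background, had it in 2 of 651 and 1 of 615 cells. T cells with Cd4 only had 34.5 CPM (18.4 to 59.0) in control and 96.9 CPM (73.6 to 125) in D-CAN, and those with Cd8 only 36.6 CPM (24.1 to 53.3) and 49.3 CPM (36.9 to 64.7). The Cd4 values were 13 UMIs in 9 of 114 cells (7.89%) and 58 UMIs in 11 of 137 cells (8.03%), nearly the same share of cells. Cd8-only cells were positive in 21 of 202 (10.4%) and 33 of 228 (14.5%). Cells with neither coreceptor were positive in 21 of 399 (5.26%) and 44 of 375 (11.7%). T cells with the gamma delta gene Trdc and neither coreceptor had the highest levels of the T cell groups, 122 CPM in control (3 of 24 cells) and 240 CPM in D-CAN (13 of 30 cells).

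Zbtb16 and Itgae were found more often in the Cxcr6-positive T cells than in the others, and the Cxcr6-positive cells were deeper (medians of 3780 and 4235 UMIs, against 2709 and 3490 in all T cells), whose part in these shares was not tested. Zbtb16, which encodes the innate-like T cell factor PLZF, was in 7.84% of Cxcr6-positive T cells in control and 8.99% in D-CAN, against 0.447% and 0 of 659 of the others, where 0 of 659 has an exact upper bound of 0.558% for cells with a UMI. Itgae was in 19.6% and 24.7% against 5.81% and 6.07%. Cells with both receptors were few, 4 T cells in control (3.11 expected from the separate shares) and 17 in D-CAN (4.88 expected).

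Tumor lymphocytes were too few for levels of the receptors by class. The control tumor had 13 T cells, of which 0 held Cxcr3 and 4 held Cxcr6, and the D-CAN tumor had 18, of which 3 and 6 did. Cxcr3 totalled 7 UMIs in the control tumor and 20 in the D-CAN tumor, and 4 of the 17 D-CAN dendritic cells held 6 of the 20. Of these 17 gated cells, 8 lay at the cut of 2 markers and 0 were in a graph cluster named dendritic. Cells with a Cxcr6 UMI numbered 10 in the control tumor and 11 in the D-CAN tumor, beside 342 and 277 cells with a UMI of its ligand Cxcl16.

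Interferon gamma itself, Ifng, was in SAT lymphocytes. It was in 60 of 722 T cells in control (8.31%, 87.3 CPM) and 51 of 748 in D-CAN (6.82%, 76.5 CPM), and in 8 of 15 and 7 of 10 NK cells, at 1210 and 1634 CPM. The tumor had 6 UMIs of Ifng in T cells in control and 2 in D-CAN. Ifnb1, a type I interferon, was seen in tumor C1q+ macrophages, with 7 UMIs in 3 cells in control and 6 UMIs in 2 cells in D-CAN.

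In the other classes that carried the ligands, no interferon target gene passed 2-fold higher in D-CAN. In tumor C1q+ macrophages 0 of 11 passed 2-fold higher and 1 passed lower (Cd274, log2 -1.16), where 1.57% and 2.14% of all genes did, and the median was -0.13. In tumor fibroblasts 0 of 8 passed in either direction, where 5.45% of 6426 genes did, so a count of 0 in so short a list is near that share. In tumor endothelial cells 3 of 8 passed lower (Rsad2 -1.54, Ifit3 -1.28, Gbp4 -1.06), where 4.13% of all genes did. In SAT T cells 1 of 11 passed lower (Usp18, -1.27), as 1.35% of all genes did, and the median was -0.40. In SAT endothelial cells 1 of 11 passed lower (Ifit1, -1.27), as 1.93% of all genes did, and in SAT dendritic cells 2 of 5 (Mx1 at -1.54 and Isg15 at -1.50), where 6.48% did. In SAT fibroblasts 5 of 7 passed lower, with a median of -1.22 against -0.02 over all genes, of which 5.81% passed lower. Isg15 there had 117 UMIs in control and 10 in D-CAN (log2 -3.25), and Irf7, a factor of the type I interferon response, 107 and 10 (log2 -3.13). The control SAT fibroblasts and dendritic cells are the classes that also held more UMIs from the marker lists of other classes, as given above.

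Adam10 and Adam17, the sheddases of Cxcl16, differed by less than 2-fold between the libraries in each class tested. Adam10 was at 108 and 112 CPM in tumor C1q+ macrophages (log2 0.05), and Adam17 at 109 and 72.8 CPM (log2 -0.58, -1.07 to -0.11). Dpp4, which trims the CXCR3 ligands, was highest in SAT fibroblasts among the classes tested, at 218 and 281 CPM (log2 0.37). In tumor fibroblasts Dpp4 had 4 UMIs in control and 16 in D-CAN (log2 1.48, -0.03 to 3.65).

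Over all cells of a library, Cxcl9 and Cxcl10 were held together more often than the separate shares give, but within single classes the order varied. Cells of a library share depth and class. Over all cells, 15 cells of the control tumor held both (4.02 expected), 16 of the D-CAN tumor (3.96), 14 of control SAT (6.16) and 6 of D-CAN SAT (1.97). Within C1q+ macrophages of the control tumor, 6 cells held both against 3.89 expected, and 25 held Cxcl9 and Cxcl16 against 20.4 expected. Across 25 sums of a class in a library, the genes with levels most like Cxcl10 among 11894 were Lgals3bp (Pearson r = 0.88), Isg15 (0.85) and Usp18 (0.82). Most like Cxcl9 were Ifi44 (0.85), Sdc3 (0.83) and Nrp2 (0.82), and most like Cxcl16 were Rab32 (0.91), P2ry14 (0.91) and Lacc1 (0.90). For Cxcr3 they were Gm5547 (0.84), Il7r (0.83) and Ccl5 (0.83), and genes with a high likeness to Cxcr6 were Dapl1 (0.89) and Ncr1 (0.88). The sums share libraries and classes, so these values describe the pattern only.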

How the data were processed

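The authors deposited raw UMI counts per gene and cell for each of the 4 libraries, made with Cell Ranger and STAR 2.6 on mm10. The submitters' notes give Cell Ranger 3.1.0, while the file header of the D-CAN SAT library gives 3.0.2, so version and treatment cannot be told apart in SAT. Cells with at least 200 genes were kept. A cell was gated to the class with the most markers, at least 2, and called mixed where a second class had at least 2 markers and over 0.5 of that number. This rule left out the pairs T and NK, macrophage and dendritic, B and plasma, and fibroblast and mural, save that ties were mixed in all but the macrophage and dendritic pair. Cells led by macrophage or dendritic markers were called dendritic with at least 2 dendritic markers and fewer than 2 C1q genes, even where macrophage markers were more numerous. C1q+ macrophages held at least 2 of 3 C1q genes. UMIs were summed per class and library and divided by the class total. 1264 gated cells lay at the cut of 2 markers. Scrublet called 18 of 8986 cells and so did not work, and the 175 highest scores were left out as an alternative. No pair of libraries shared more than 2 barcodes. Named genes were the 6 members, interferon signalling and target genes, ligand proteases, T cell genes and the 3 genes most like each member. Some genes under this rule are not reported here. Members and lists were chosen with earlier results of these data known, and the motifs with the windows seen. Ratios were computed for genes with at least 20 UMIs. On simulated SAT T cell counts of 8734 genes, 98 of 100 genes changed 2-fold and 92 of 100 changed 4-fold were recovered, that is, to within 0.5 in log2. The changed genes had at least 100 UMIs and counts were drawn as Poisson sums. The simulation thus does not cover genes with fewer UMIs, UMIs gathered in few cells or variation between libraries. Alternatives covered cell filters, graph clusters, a stricter gate, doublets, thinning, weighting, scaling and minimum counts. Python 3.11.15, numpy 2.4.6, scipy 1.17.1, pandas 2.3.3 and scanpy 1.11.5 were used.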

Additional observations from a re-analysis of the deposited data

Results flagged for a closer look

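Cxcl9 in endothelial cells had ratios of opposite sign in the 2 tissues, with a log2 ratio of D-CAN over control of 0.65 (-0.02 to 1.33) in the tumor and -0.14 (-0.45 to 0.17) in SAT. Both intervals include 0, and the difference between the tissues was not tested, because each tissue and treatment has 1 library.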

How the results depend on the processing

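13 alternatives were run on 32 values, giving 209 values, of which 18 moved beyond the counting interval and 0 changed direction, among the planned choices, and none of 99 alternative log2 ratios had the other sign. A change of direction was counted only for ratios that passed 2-fold in the main run. The minimum counts of 50 and 10 UMIs decide only which ratios are listed. Their ratios equal the main ones by construction and tell nothing about stability, though they are in these counts. With graph clusters in place of gates, the tumor myeloid share of Cxcl16 was 90.7% in control and 90.1% in D-CAN, the T cell share of Cxcl10 in control SAT 27.3%, the dendritic share of Cxcl16 in control SAT 54.0% (63.9% in D-CAN) and the endothelial share of Cxcl9 in D-CAN SAT 83.1%. With 1 more marker required, the T cell share of Cxcl10 in control SAT was 21.6% and its log2 ratio in T cells -0.40. With cells thinned to 1000 UMIs, Cxcr3 was in 2.12% of control and 3.31% of D-CAN SAT T cells, Cxcr6 in 3.59% and 4.81%, and Cxcl16 in D-CAN tumor C1q+ macrophages was at 579 CPM. At 2000 UMIs, Cxcr3 was in 4.09% and 2.32% and Cxcr6 in 3.27% and 7.63%. As a mean over single cells, Cxcl16 in D-CAN tumor C1q+ macrophages was 567 CPM. Without the top cell of each library, the log2 ratio of Cxcl10 in cancer cells was 1.78. Without the 10 top cells, a choice made after seeing the data, it was -0.01, and the subsets of SAT classes were added in the same way. No graph cluster was named NK, and no tumor cluster was named dendritic. Depth limits the receptors most, since most positive cells held 1 UMI. No paired analysis was possible because each group holds 1 library and no result comes from a test.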
